A study of Drosophila melanogaster with 8 samples.

Results

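In leg imaginal discs of wandering Drosophila larvae, 1149 places were found where a narrow Sp1 ChIP-seq peak shared sequence with a much longer Dll peak. A pair was taken where 1 Dll peak and 1 Sp1 peak shared at least 1 bp, neither overlapped any other peak of the opposite list, the shared length was under 30% of the Dll peak, and the pair did not lie on chromosome 4. These pairs took up 9.74% of the 11796 Dll peaks and 11.8% of the 9754 Sp1 peaks outside chromosome 4. They formed 30.5% of the 3768 one-to-one pairs, and the other 2619 shared 30% or more of the Dll peak. A further 1343 Dll peaks overlapped several Sp1 peaks and 6544 overlapped none. The whole lists hold 12319 Dll and 9850 Sp1 peaks.

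Chromatin came from pools of 100 wandering larvae, with all 6 leg discs of each larva used. Dll was precipitated from *yw* larvae with a goat antibody to Dll at 1.5 μg/ml. Sp1 was precipitated from *Sp1-GFP(BAC)* larvae with a rabbit antibody to GFP at a dilution of 1 to 300, so the Sp1 peaks are those of a GFP-tagged Sp1 made from a bacterial artificial chromosome inserted at a fixed landing site, in larvae that also differ from *yw* in genotype. Each factor has 3 ChIP libraries and 1 library of input, made from 10% of the chromatin, and the authors called 1 list of peaks per factor on merged reads, so there is no spread between replicates and, without read counts in the lists, the depth is unknown.

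Distal-less (Dll) is a homeodomain transcription factor needed for the distal part of the leg and the other ventral appendages. Sp1 is a zinc-finger transcription factor of the Sp family that acts in leg specification and leg growth. In ChIP-seq a peak is a stretch where precipitated DNA outnumbers input, so its length reflects the fragments recovered and the threshold of the caller as well as the bound site. The −log10 q value that the caller gives each peak is a measure of its distance from input, and it is used here only within a list.

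The 1149 Dll peaks were long for their list. Their median length was 544 bp (95% interval 525 to 557), from 118 to 2249 bp. The median was 287 bp in the other one-to-one pairs and 216 bp in Dll peaks without Sp1. Dll peaks with several Sp1 peaks were longer than those of the pairs, at 849 bp (821 to 876). The Sp1 peaks of the 1149 pairs were short, with a median of 93 bp (91 to 96), from 53 to 539 bp. The median was 186 bp in the other one-to-one pairs, but Sp1 peaks without Dll were about as short, at 97 bp (95 to 99). The median shared length was 92 bp, and it made up 18.7% of the Dll peak at the median. Because the limit of 30% is a limit on the ratio of lengths, these differences in length describe how the pairs were chosen. Across the 1149 pairs, longer Dll peaks held longer Sp1 peaks (Spearman rho 0.52, Pearson r 0.54), where the limit on the ratio also bounds the lengths.

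The limit did not fall at a gap in the values. The 3 pairs just inside it shared 29.94%, 29.97% and 29.99% of the Dll peak, and the 3 just outside shared 30%, 30.03% and 30.07%. The last pair inside lay on 3R, with a Dll peak from 21849705 to 21850392 and an Sp1 peak of 206 bp. The first outside lay on 3R as well, with a Dll peak from 3967483 to 3967663 and an Sp1 peak of 54 bp (all coordinates dm3).

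The 5 main chromosome arms held pairs of this kind in like shares. They made up 9.80% of the Dll peaks on 2L (209 pairs), 9.75% on 2R (217), 9.72% on 3L (255), 10.0% on 3R (269) and 9.47% on X (197), and the 95% Wilson intervals of the 5 arms all overlapped. The rule left out chromosome 4, where the same limits would give 7 pairs among 523 Dll peaks (1.34%, 0.650 to 2.74). The other 2 of the 1149 lay in heterochromatic sequence.

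In nearly all pairs the Sp1 peak was enclosed by the Dll peak. It lay wholly inside in 1045 of 1149 pairs, or 90.9% (95% Wilson interval 89.2 to 92.5), against 67.8% of the other one-to-one pairs (66.0 to 69.5) and 74.8% of all one-to-one pairs. The limit on the shared length chose Sp1 peaks that are short beside their partner and so more easily enclosed, and its part in this difference was not tested. In the remaining 104 pairs the Sp1 peak reached past 1 end of the Dll peak, the left end in 53 and the right end in 51.

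**Figure D1:**
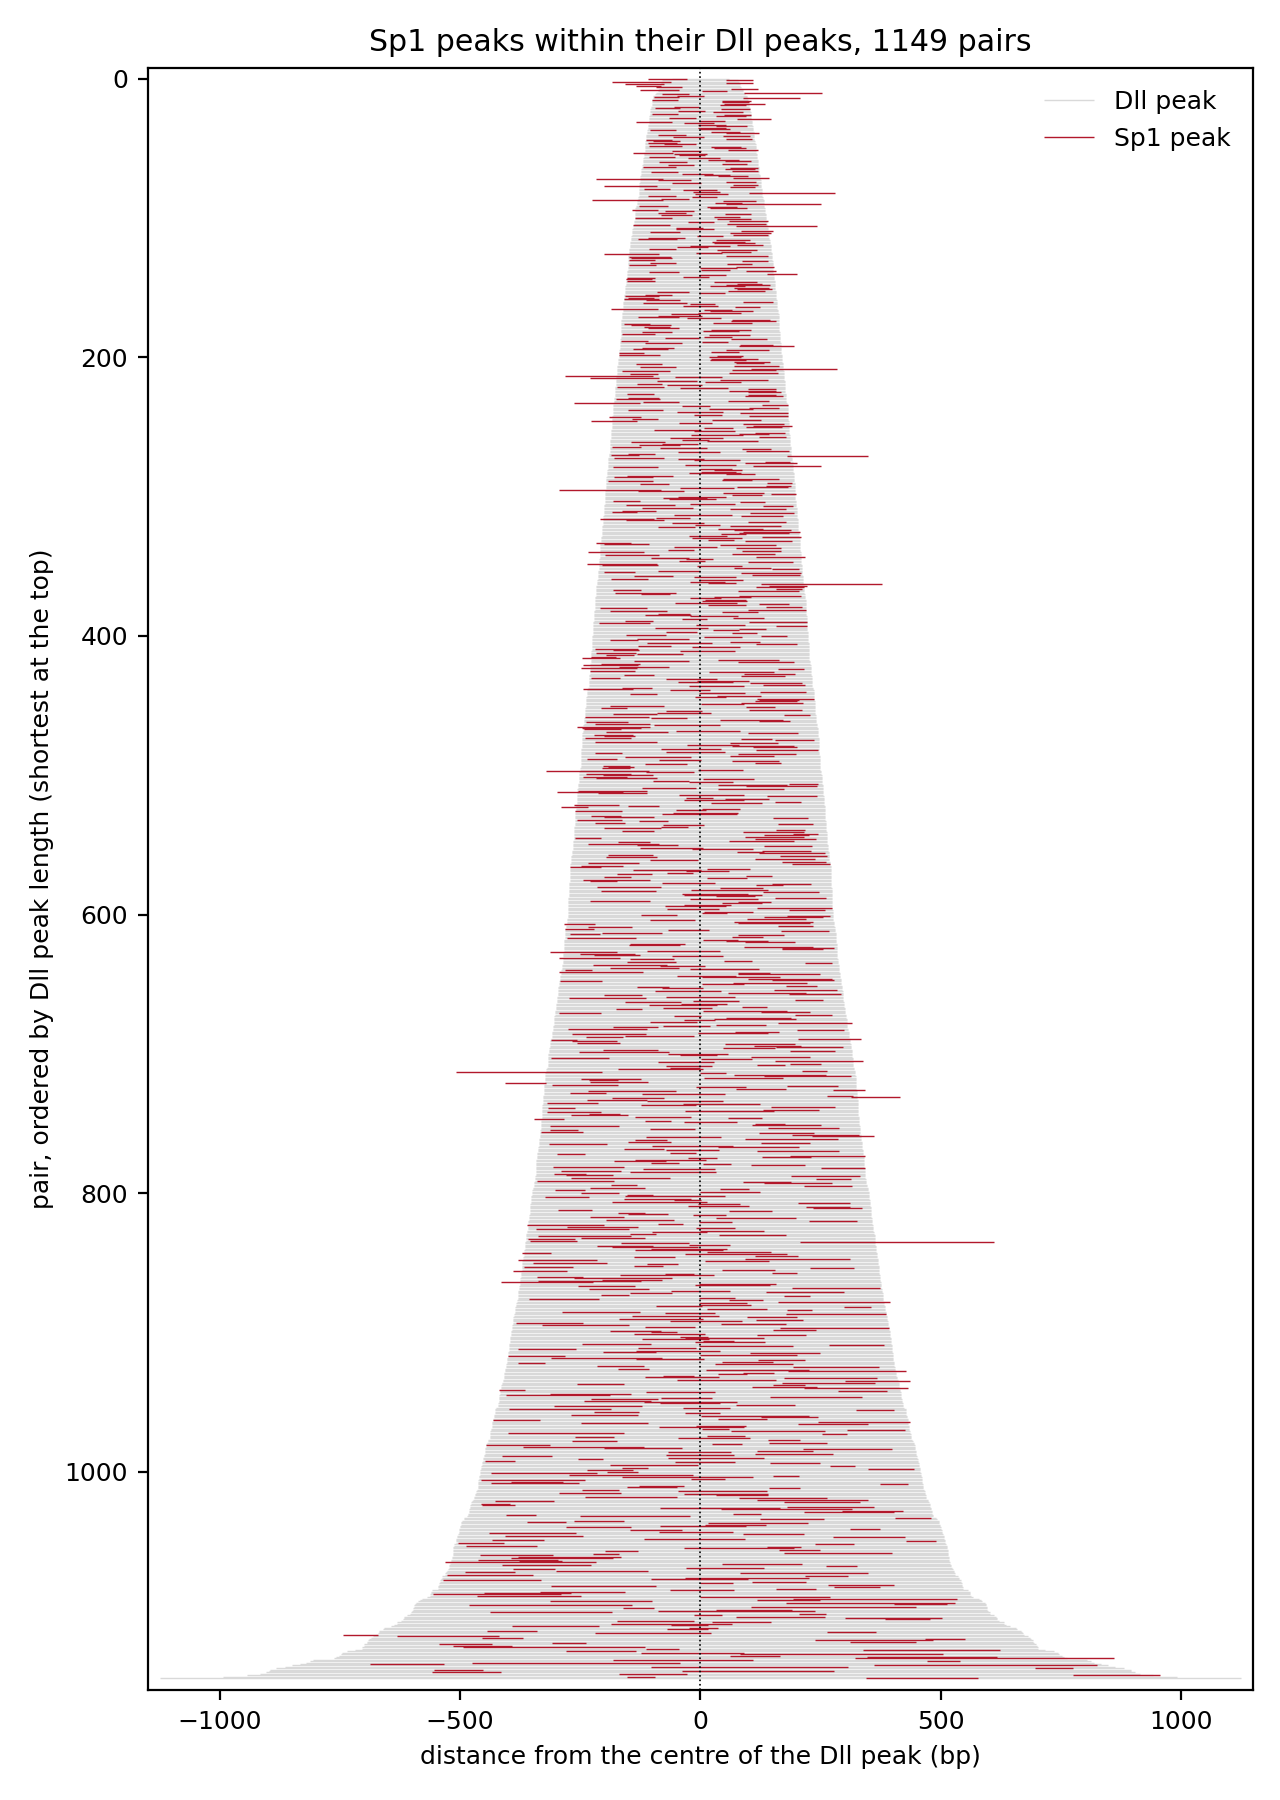
Each row is 1 of the 1149 pairs, with the Dll peak in grey and its Sp1 peak in red, plotted as distance in bp from the centre of the Dll peak and ordered from the shortest Dll peak at the top to the longest at the bottom. Sp1 peaks occur at every position within the Dll peaks, they crowd along both flanks of the short ones, and those of the 104 pairs that pass an end stand out from the grey outline.

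The position of an enclosed Sp1 peak was measured against the free length, which is the length of the Dll peak minus that of the Sp1 peak. The percentage of the free length that lies to the left of the Sp1 peak is 0 at the left end, 50 at the centre and 100 at the right end, and a peak placed evenly along the free length would fall in its central 50% in 50% of cases. Enclosed Sp1 peaks fell there in 461 of 1045 pairs, or 44.1% (95% Wilson interval 41.1 to 47.1), against 39.4% of the 5718 Sp1 peaks enclosed by any Dll peak outside chromosome 4. The excess was at the ends. The outermost 10% at either end held 316 Sp1 peaks, 30.2% (27.5 to 33.1), where even placement gives 20% and all 5718 enclosed Sp1 peaks gave 32.8%. A lean to the ends was therefore not particular to these pairs. In the other one-to-one pairs the central 50% held 37.5% of 1774 (35.3 to 39.8), a lower share with an interval apart from that of the 1045. The outermost 10% at either end held 30.9% of the 1774. The other one-to-one pairs had shorter Dll peaks and more often another Sp1 peak close by. Among the 1045, both of these went with a lower central share, as described below. The central shares were not compared with Dll length and nearby Sp1 peaks matched.

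**Figure D2:**
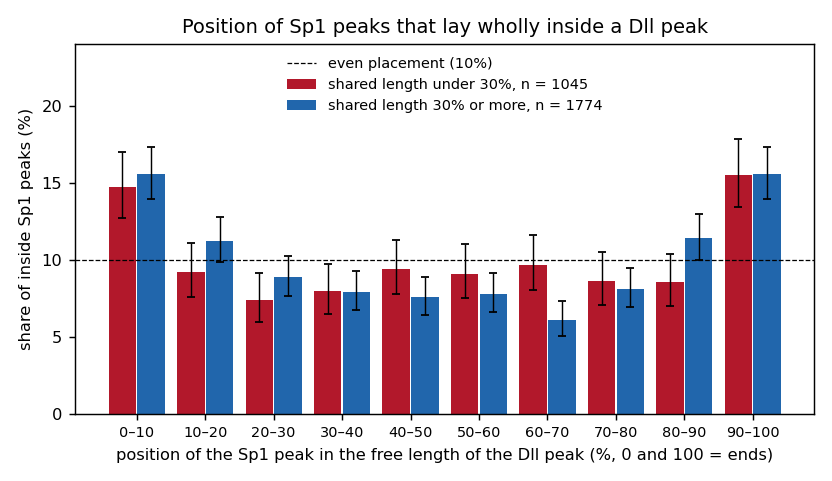
Share of enclosed Sp1 peaks (%) in each 10% of the free length of the Dll peak, for pairs that share under 30% of the Dll peak (red, n = 1045) and for other one-to-one pairs (blue, n = 1774), with 95% Wilson intervals and a dashed line at the 10% of even placement. Only the outermost bins of the red bars, 14.7% and 15.5%, stand above the line with their intervals, and the bins between them run from 7.37% to 9.67%.

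Neither side was preferred along the chromosome beyond counting error, with 508 Sp1 peaks (48.6%, 45.6 to 51.6) in the left part of the free length. In base pairs, the nearer end of the Dll peak was 90 bp away at the median (79 to 99), and the centres of the 2 peaks were 114 bp apart (106.5 to 121.5). An end of the Dll peak lay within 50 bp in 389 pairs (37.2%), and exactly at an end of the Sp1 peak in 19 (1.82%). The centre of the Dll peak lay within 50 bp of the Sp1 centre in 232 pairs (22.2%). At 50 bp, neither the centre nor the ends thus took in most pairs. With position read from the centre of the Sp1 peak along the whole Dll peak, 52.9% (49.9 to 55.9) lay in the central 50%. On that measure even placement gives more than 50%, because the centre of an enclosed peak cannot reach the end. Its share under even placement was not computed.

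Position moved with the length of the Dll peak. With the 1045 pairs split into 4 groups by Dll length, the central 50% of the free length held 34.0% of the Sp1 peaks in Dll peaks of 177 to 402 bp (95% Wilson interval 28.5 to 39.9). It held 40.2% in those of 403 to 550 bp and 47.9% in those of 550 to 760 bp. In Dll peaks of 762 to 2249 bp it held 54.4% (48.3 to 60.3). Over the same 4 groups the outermost 10% at either end held 36.3%, 35.2%, 29.1% and 20.3%, so that the lean to the ends was seen in the shorter Dll peaks and the longest came close to even placement.

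**Figure D3:**
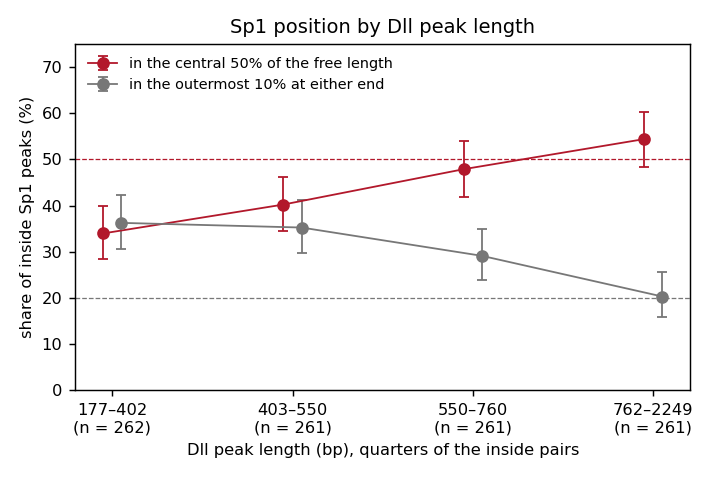
Share (%) of enclosed Sp1 peaks in the central 50% of the free length (red) and in the outermost 10% at either end (grey), in 4 groups of 261 or 262 pairs by Dll peak length in bp, with 95% Wilson intervals and dashed lines at the 50% and 20% of even placement. The red share and its interval lie under the 50% line in the 2 shorter groups and the grey share meets its line in the longest Dll peaks.

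Other splits moved position less. By Dll −log10 q, the central share was 39.7%, 39.8%, 49.4% and 47.5% in 4 groups of increasing score. By Sp1 −log10 q it was 45.0%, 46.0%, 44.8% and 40.6%, with intervals that all overlapped. By arm it ran from 42.8% on 3L to 47.1% on 2L.

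The side on which the Sp1 peak lay was related to the next Sp1 peak outside the Dll peak. Another Sp1 peak began within 500 bp of an end of the Dll peak in 512 of 1149 pairs (44.6%, 41.7 to 47.4). This was close to the 42.4% of all Dll peaks and below the 57.7% (55.8 to 59.6) of the other one-to-one pairs. Of the 471 enclosed pairs with such a neighbour, 218 (46.3%, 41.8 to 50.8) had their Sp1 peak in the 25% of the free length nearest to it, and 82 (17.4%, 14.3 to 21.1) in the 25% farthest from it. The other 574 enclosed pairs, with the next Sp1 peak 500 bp or more away, had 28.9% (25.4 to 32.8) in the nearest and 20.6% (17.5 to 24.1) in the farthest 25%. In those 574, the central 50% held 290 Sp1 peaks (50.5%, 46.4 to 54.6), the share of even placement, whereas it held 36.3% (32.1 to 40.7) in the 471. The 574 were not alike at all lengths. In their Dll peaks up to the median length of 550 bp the central 50% held 41.3% of 264 (35.5 to 47.3), and in the longer ones 58.4% of 310 (52.8 to 63.7). A lean to the ends was thus also seen without an Sp1 neighbour in the shorter Dll peaks, and the longer ones leaned to the centre.

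**Figure D4:**
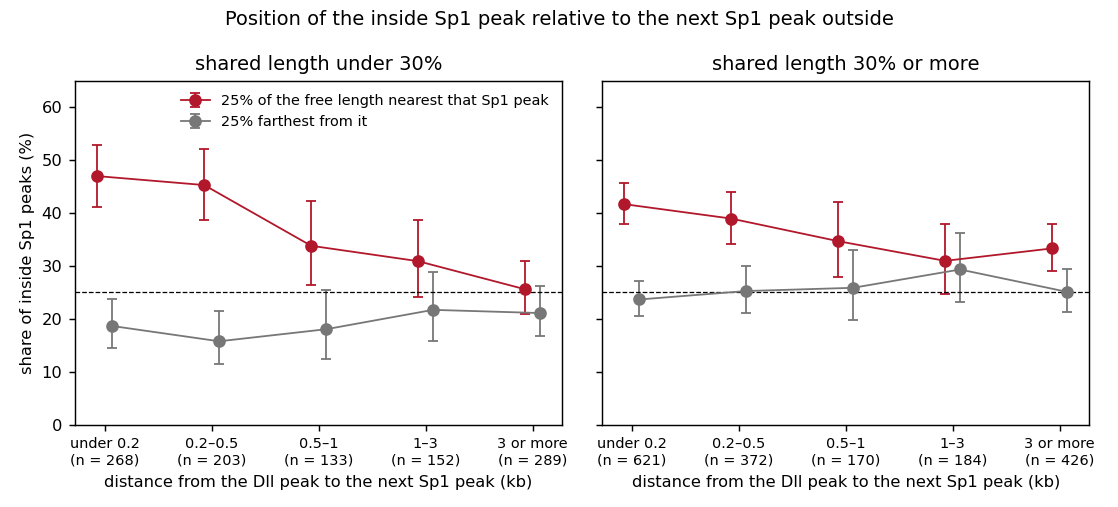
Share (%) of enclosed Sp1 peaks in the 25% of the free length nearest to the next Sp1 peak outside the Dll peak (red) and in the 25% farthest from it (grey), by the distance of that peak from the Dll peak in kb, with 95% Wilson intervals and a dashed line at 25%. In pairs that share under 30% (left) the nearest share is 47.0% under 0.2 kb and 25.6% at 3 kb or more, and in the other one-to-one pairs (right) it is 41.7% and 33.3% at these distances.

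A neighbouring Dll peak without a neighbouring Sp1 peak did not go with such a lean. Another Dll peak lay within 500 bp in 842 of 1149 pairs (73.3%), against 71.3% of all Dll peaks. In the 349 enclosed pairs that had a Dll neighbour and no Sp1 neighbour within 500 bp, 26.6% of Sp1 peaks lay in the 25% nearest to that Dll peak (22.3 to 31.5) and 52.1% in the central 50%. In the 225 pairs with neither neighbour the central 50% held 48.0% (41.6 to 54.5). Conversely, where an Sp1 neighbour was close, the nearest 25% held 46.6% of 414 Sp1 peaks with a Dll peak within 500 bp on that side and 43.9% of 57 without. The lean toward the Sp1 neighbour was thus seen with and without a close Dll peak on that side, whatever lay at the other end. The lean toward an Sp1 neighbour was seen on both sides of the median Dll length. In Dll peaks up to that length with an Sp1 neighbour, 47.1% of 261 lay in the nearest 25% and 19.9% in the farthest. In longer ones, 45.2% of 210 lay in the nearest and 14.3% in the farthest. The central 50% held 33.0% and 40.5% in these shorter and longer Dll peaks, less than without an Sp1 neighbour at either length, with intervals that overlapped in the shorter ones.

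The choice of pairs bears on this pattern. A Dll peak that reached both Sp1 peaks of a close couple was not a one-to-one pair, so a close couple could enter only with an end of the Dll peak between its members. How much of the lean comes from that was not tested. The same rule chose the other one-to-one pairs, where the nearest 25% held 40.7% (37.7 to 43.8) and the farthest 24.3% of 993 with an Sp1 neighbour within 500 bp.

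Some of these neighbours were pairs of the same kind. In 57 cases the Dll peaks of 2 such pairs followed each other within 500 bp, with a median gap of 90 bp. Both Sp1 centres lay on the sides that face the gap in 24 cases and both on the sides away from it in 10, and in 23 cases 1 faced the gap and 1 did not. These couples hold 111 different Dll peaks, of which 3 belong to 2 couples each. Of the 108 in a single couple, 68 had their Sp1 centre on the side of the gap. Clusters of this sort show that a count of pairs is not a count of separate loci.

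The 2 peaks of a pair had unlike standings in their lists. Dll −log10 q was 10.1 at the median (95% interval 9.57 to 10.4), from 4 to 43.35. This put the Dll peaks at a median percentile rank of 70.3 (68.6 to 72.1) in the Dll list. Dll peaks with several Sp1 peaks ranked higher, at a median of 85.6 (85.0 to 86.7). In the 1149 pairs, Sp1 −log10 q was 5.67 at the median (5.48 to 5.83), from 4 to 54.86. This put the Sp1 peaks at a median rank of 37.0 (33.9 to 39.8) in the Sp1 list. Sp1 peaks without Dll stood much the same, with a median −log10 q of 5.7 (5.54 to 5.83) and a median rank of 37.2 (35.8 to 39.8). In 902 pairs (78.5%, 76.0 to 80.8) the Dll peak ranked above its Sp1 peak. In the other one-to-one pairs it did so in 48.5%, with median ranks of 58.8 for Dll and 60.4 for Sp1. The limit on the shared length chose long Dll peaks with short Sp1 peaks, and score rises with length in both lists. A high Dll rank beside a low Sp1 rank thus goes with how the pairs were chosen. The ranks were not compared at matched length. The highest 10% of the Dll list held 172 of the 1149 Dll peaks (14.97%, 13.0 to 17.1), against 10.4% of all Dll peaks outside chromosome 4. It held 13.3% (12.0 to 14.6) of those in the other one-to-one pairs, with overlapping intervals. The highest 10% of the Sp1 list held 19 of the Sp1 peaks (1.65%), against 9.87% of all Sp1 peaks, and 378 (32.9%) had a −log10 q under 5, near the lowest value of 4 in the list.

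Within a pair the 2 scores were only weakly related (Spearman rho 0.25, Pearson r 0.27, n = 1149 pairs that share a locus), with a median Sp1 −log10 q of 5.25 (4.99 to 5.48) in the pairs of lowest Dll score, 4 to 7.05, and of 6.61 (5.98 to 7.05) in those of highest, 14.13 to 43.35.

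Score and length go together in both lists, so the scores were also read at matched length. Among Dll peaks over 400 and up to 500 bp long, the median −log10 q was 8.97 in the 189 pairs (95% interval 8.09 to 9.50), 10.9 in other one-to-one pairs (10.0 to 12.1) and 7.50 in Dll peaks without Sp1 (7.09 to 7.68). Over 600 and up to 800 bp it was 11.4 (10.6 to 12.7), 14.1 (13.2 to 16.0) and 9.53 (9.02 to 10.1). At these lengths, and over 500 and up to 600 bp, the Dll peaks with a small Sp1 peak thus lay between Dll peaks with a broad Sp1 overlap and Dll peaks with none. In the unmatched ranks these Dll peaks instead stood above those of the other one-to-one pairs. They were not separate from the other one-to-one pairs over 300 and up to 400 bp, at 8.48 (7.73 to 9.27) against 8.61 (8.03 to 9.02), nor over 800 and up to 1000 bp, at 14.0 (12.1 to 15.3) against 14.7 (13.3 to 17.1). Up to 300 bp, and over 1000 bp, the intervals of the pairs met or overlapped those of Dll peaks without Sp1. For Sp1 peaks over 100 and up to 150 bp, the median −log10 q was 5.98 (5.58 to 6.31) in the pairs. It was 6.52 (6.23 to 6.89) in other one-to-one pairs and 5.83 (5.52 to 5.98) in Sp1 peaks without Dll. The interval of the pairs overlapped both of these, and it did so at every other Sp1 length as well. The median of the pairs was above that of the other one-to-one pairs over 150 and up to 200 bp, at 7.05 against 7.03. It was also above over 300 bp, at 11.83 against 11.34, and below at the remaining lengths. At matched Sp1 length the pairs were thus not separate from the other one-to-one pairs in Sp1 score.

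**Figure D5:**
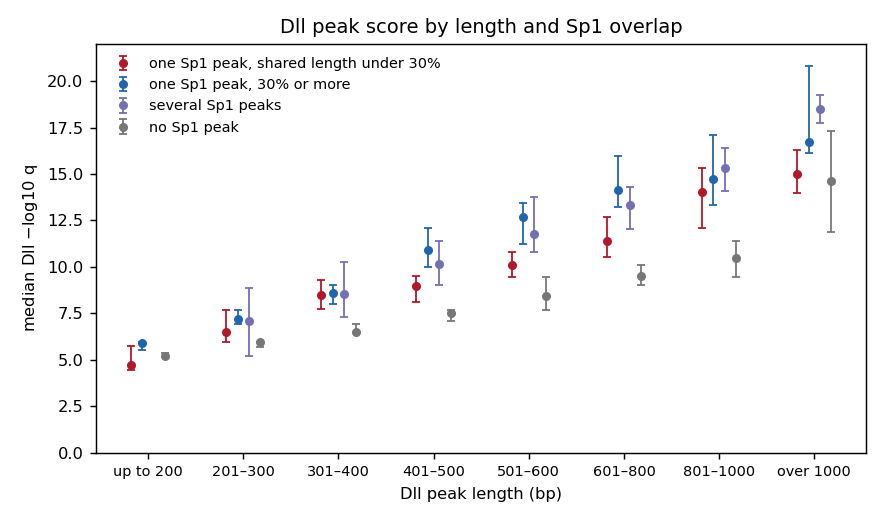
Median Dll −log10 q with its 95% interval by Dll peak length in bp, for Dll peaks with 1 Sp1 peak that shares under 30% (red), 1 Sp1 peak that shares more (blue), several Sp1 peaks (violet) and none (grey). From over 300 to 1000 bp the red medians, 8.48 to 14.0, lie above the grey ones, 6.52 to 10.5, and groups of under 10 peaks are left out.

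The 5 pairs with the highest Dll scores all enclosed their Sp1 peak. The first, on 2L from 3346343 to 3347039, had a Dll −log10 q of 43.35 and an Sp1 peak of 114 bp with a −log10 q of 8.32, placed at 20.4% of the free length. The second, on 2R from 12481525 to 12482256, had a Dll value of 41.79 and the strongest Sp1 peak of the 5, at 17.26, close to the centre at 45.9%. The third, on 2L from 7993639 to 7994348, had values of 37.03 and 6.82 and its Sp1 peak near the right end at 93.2%. It was the only one of the 5 with the Sp1 peak within 50 bp of an end, 42 bp away, and the next Sp1 peak began 87 bp beyond that end. The fourth, on 3L from 14234368 to 14235114, and the fifth, on 2L from 19935109 to 19935815, had Dll values of 36.87 and 34.26, with Sp1 peaks at 37.6% and 33.2% of the free length. All 5 Dll peaks were from 696 to 746 bp long.

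The 5 highest Sp1 scores were of another kind. The Sp1 peak on 2L from 3108067 to 3108606 was the longest of all 1149, at 539 bp, and had a −log10 q of 54.86. Its Dll peak of 1526 bp scored 23.12, and the Sp1 peak ran 98 bp past the right end. On 2R, the Sp1 peak from 18616762 to 18616978 scored 31.59 beside a Dll value of 9.57 and ran 16 bp past the end. The next 3 were enclosed, on 3L from 3249014 to 3249353 (Sp1 29.82, Dll 25.47), on 2L from 7306860 to 7307063 (Sp1 26.96, Dll 16.69) and on 3R from 17259830 to 17260253 (Sp1 25.76, Dll 12.59). None of the 3 enclosed ones lay in the central 50% of the free length, with positions of 13.3%, 20.5% and 77.5%.

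In the 104 pairs where the Sp1 peak passed an end, the Dll peaks differed from those of the enclosed pairs. They were shorter, with a median of 400 bp (349 to 454) against 550 bp (539 to 570) in enclosed pairs, and scored lower, at a median −log10 q of 6.51 (5.78 to 7.09) against 10.3 (10.1 to 10.8). Their Sp1 peaks scored 6.04 (5.33 to 6.94) against 5.60 (5.46 to 5.83), with overlapping intervals. Neither score was compared here at matched length. The Sp1 peak ran past the end by 19 bp at the median, from 1 to 247 bp, and in 27 pairs less than 50% of it lay within the Dll peak. Another Dll peak lay within 500 bp on that side in 33. The 71.3% of all Dll peaks given above counts either end, so it is not a like share. The smallest overlaps of the whole set were of this type. On 3R, a Dll peak from 7603696 to 7604344 and an Sp1 peak of 85 bp shared 2 bp, or 0.309% of the Dll peak. On 3L, a Dll peak from 178018 to 179367 shared 5 bp (0.371%), and on 2R one from 18569209 to 18569394 shared 2 bp (1.08%). In these 3 pairs the peaks touch rather than coincide.

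Few of the pairs entered the study's list of intersection regions, which kept Dll and Sp1 overlaps in open chromatin that also held predicted sites for Dll, Sp1, Mad and Pan. Of the 1149 pairs, 15 held such a region (1.31%, 0.793 to 2.14), against 7.87% (6.90 to 8.96) of the other one-to-one pairs and 5.87% of all one-to-one pairs. Of all Dll peaks 3.60% and of all Sp1 peaks 4.51% shared sequence with a region. The regions were chosen by the study on these same peaks, so this is a description of that list. The limit of 30% also kept short shared segments, with a median of 92 bp against 168 bp in the other one-to-one pairs, and a region must hold all the predicted sites. The part of segment length in the difference in shares was not tested. The share moved with the settings. It was 0.763% with a limit of 20%, 2.95% with peaks of a list within 500 bp joined, 2.74% among peaks with a −log10 q of 6 or more and 6.57% among those of 10 or more. All 15 regions had the start and end of the segment shared by the 2 peaks. These 15 pairs had longer peaks than the rest, with medians of 903 bp (734 to 1192) for Dll and 200 bp (155 to 252) for Sp1, against 543 and 93 bp in the 1134 pairs without a region.

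The list pairs 14 of the 15 regions with a gene, and 2 of these genes belong to lists of leg patterning, signalling and growth genes drawn up for this comparison. The share of listed genes over all 442 regions of the study is not given, so nothing is read from this count. The pair assigned to *fru*, which encodes BTB zinc-finger transcription factors best known from sexual differentiation of the nervous system, lay on 3R from 14272768 to 14273413. Its Dll −log10 q was 12.25, and its Sp1 peak of 193 bp scored 5.25 and lay toward the right end at 86.7% of the free length. The pair assigned to *InR*, the insulin receptor and a regulator of growth, lay on 3R from 17426062 to 17426879. Its Dll value was 20.55, and its Sp1 peak of 155 bp scored 7.05 and lay near the centre at 44.3%. The other 12 named genes were *tou*, *Treh* (trehalase), *foi* (a zinc transporter), *Pka-C3* (a protein kinase A catalytic subunit), *lbl* (a homeodomain factor), *CG9990*, *RpL36* (a ribosomal protein), *CG1677*, *l(1)G0320*, *pot*, *CG43658* and *CG43759*. The *lbl* pair is the one on 3R with the fifth highest Sp1 score. In 2 of the 15, those of *RpL36* and *CG43759*, the Sp1 peak passed an end of the Dll peak, by 2 and 11 bp.

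Reporter fragments of the study were also compared with the pairs. They are named enhancers, fragments tested near leg genes, and fragments from scans of EGFR ligand and protease loci. Outside chromosome 4, the named enhancers and tested fragments numbered 27. Of these, 23 overlapped a Dll peak, 29 Dll peaks in all, of which 0 belonged to these pairs and 12 to the other one-to-one pairs. Of all 11796 Dll peaks outside chromosome 4, 1149 (9.74%) belonged to these pairs and 2619 to the other one-to-one pairs. The tested fragments were chosen by the study from its intersection regions, which were rare in these pairs, while the named enhancers came from its locus scans. Among 40 further fragments used to scan loci of EGFR ligands and ligand-processing proteases, 24 overlapped a Dll peak. Their 37 Dll peaks included 7 of these pairs, in 6 fragments, and 6 of the other one-to-one pairs. These 7 pairs were singled out after their values were seen. They were 5 at *rho*, which encodes the protease that activates EGFR ligands, 1 at *vn* and 1 at *Krn*, both of which encode EGFR ligands. At *rho*, 2 couples of adjacent Dll peaks on 3L each held small Sp1 peaks. In the first couple, from 1442618 to 1443033 and from 1443105 to 1443497, the Sp1 peaks had −log10 q values of 4.16 and 4.10 and lay at 94.7% and 88.1% of the free length, beside Dll values of 12.0 and 10.9. In the second, from 1458183 to 1458437 and from 1458496 to 1458828, they had values of 5.25 and 4.70 and lay at 93.5% and 89.5%, beside Dll values of 12.7 and 6.98. All 4 Sp1 peaks thus lay within 33 bp of the right end. The fifth at *rho*, from 1463390 to 1464445, was a long Dll peak of 1055 bp that scored 20.0, with an Sp1 peak of 190 bp scoring 8.77 at 26.4%. At *vn*, the Dll peak from 5838471 to 5838953 scored 9.48 and its Sp1 peak 5, at 80.3%. At *Krn*, the Dll peak from 17646780 to 17647498 scored 14.98 and its Sp1 peak 8.33, at 3.24%, with the next Sp1 peak 102 bp beyond that end. Apart from the long peak at *rho*, each of these Sp1 peaks lay in an outer 25% of the free length.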

How the data were processed

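The authors precipitated leg disc chromatin for Dll and for GFP-tagged Sp1, mapped reads with the Burrows-Wheeler Aligner, and used MACS2 to call peaks (version 2.0.9 in the submitters' processing notes, build dm3). The study's methods mention both triplicate pools and merged duplicates, so which libraries entered each list is not known. Peak edges were set at a looser p-value threshold and peaks were kept at a stricter q-value. The deposited lists give a start, an end and the authors' −log10 q for each peak, from 4 upward, and peaks of a list were at least 51 bp apart.

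The lists were analysed with statsmodels 0.14.6, pandas 2.3.3, matplotlib 3.10.9, scipy 1.17.1 and numpy 2.4.6 under Python 3.11.15. Starts were read as counted from 0 and are printed as the lists give them. Percentile ranks were taken within each list, ties averaged. Shares have 95% Wilson intervals and medians have 95% binomial order-statistic intervals. Both intervals allow only for counting error, as if peaks were independent. No significance test was made, since length, position and score come from the calls that chose the pairs. The pair search was tested on simulated data.

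The pairs and gene lists were chosen with earlier results of these data known. Named were the 5 pairs highest in each score, the 3 of smallest shared fraction, the 3 on each side of the limit, pairs in named enhancers or tested fragments, and pairs whose intersection region is assigned to a listed gene. All 14 gene names occur in a RefSeq gene table of Release 6, from which no coordinates were taken. Genome sequence and gene annotation of dm3 were not used here, so no sequence, exon or intron is given.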

Additional observations from a re-analysis of the deposited data

How the results depend on the processing

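The 6 summary values of the pairs (their number, the enclosed share, the central share, the median Dll and Sp1 ranks and the share with an intersection region) were recomputed under up to 11 alternative settings each, which gave 60 values. In 41 cases a value stayed within its interval, or a count within 1.5 times. A limit of 20% gave 655 pairs, 92.8% enclosed, 48.0% central, median ranks of 72.6 (Dll) and 32.8 (Sp1) and 0.763% with a region. Keeping peaks with a −log10 q of 6 or more gave 731 pairs, ranks of 80.4 and 62.3 and 2.74% with a region, and a minimum of 10 gave 274 pairs, ranks of 90.4 and 86.0 and 6.57%. The ranks shift here by construction, since low peaks are removed. With peaks of a list within 500 bp joined, 85.5% were enclosed, the Dll rank was 63.2 and 2.95% held a region. With at least 50% of the Sp1 peak required inside the Dll peak, 93.1% were enclosed. Position read from the Sp1 centre put 52.9% in the central 50%, a measure on which even placement gives more than 50%. No other alternative moved a value, chromosome 4 included or the main arms alone among them. No paired analysis was possible because each list was called on merged reads, and leaving out a replicate could not be run for the same reason. Depth is unknown, so a small Sp1 peak cannot be told apart from a larger one of which only the top passed the threshold.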
